A study of Mus musculus with 8 samples.

Results

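Kupffer cells were studied here as 603 single cells of 80474 kept liver cells (0.749%) from 8 mice, taken from 88581 barcodes in all. They were chosen by the mRNA molecules counted in each cell. A kept barcode had more than 500 genes and less than 25% of its unique molecular identifiers (UMIs, tags that mark each captured mRNA molecule once) from mitochondrial genes. A Kupffer cell had at least 2 UMIs of Clec4f, at least 2 in the sum of Vsig4, Cd5l, Marco and Timd4, and none of Top2a, Cd3e or Cd79a, which mark dividing cells, T cells and B cells. All mice were wild-type C57BL/6. The 2 controls ate normal chow, the 3 HFD+F+CCl4 mice (HFD1 to HFD3) ate a high-fat diet, and the 3 WD+F+CCl4 mice (WD1 to WD3) ate a western diet, and both model groups also drank fructose solution and received CCl4 by intraperitoneal injection for 16 weeks. CCl4 is a liver toxin that speeds fibrosis, so the models combine overfeeding with repeated toxic injury, and no group received diet or CCl4 alone. Each liver was dissociated with enzymes and loaded on a 10x Genomics 3' droplet chip, and the libraries held from 6135827 UMIs (control 2) to 64855024 (WD3). The study asked how liver monocytes, macrophages and dendritic cells differ between control and fibrotic NASH livers.

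Kupffer cells are the resident macrophages of the liver. They sit in the sinusoids, remove particles, bacteria and aged red cells from portal blood, and recycle iron and cholesterol. Their identity depends on signals from endothelial and stellate cells and on transcription factors such as LXR-alpha (Nr1h3), Id3 and Spic. Clec4f is a C-type lectin found on mouse Kupffer cells, Vsig4 is a complement receptor, Cd5l is a secreted protein of tissue macrophages, Marco is a scavenger receptor and Timd4 binds phosphatidylserine on dying cells. Embryo-derived Kupffer cells carry Timd4, whereas macrophages that descend recently from blood monocytes lack it, and in fatty liver a Trem2 and Gpnmb positive, lipid-associated macrophage appears beside them.

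The 5 genes that chose the cells lie on different chromosomes of GRCm38, Clec4f at chr6:83644542-83656187 (minus strand), Vsig4 at chrX:96247203-96293438 (minus), Cd5l at chr3:87357881-87371073 (plus), Marco at chr1:120474538-120505024 (minus) and Timd4 at chr11:46810800-46844332 (plus). Their promoters are shown because these are the genes whose joint presence defines the cells. Each sequence holds the 120 bases before the RefSeq start site (GRCm38.p6), read 5′ to 3′ on the gene's own strand, and all 5 genes were matched. Capitals mark GGAAGT, a core of the kind read by ETS factors such as PU.1, which macrophages require, and this motif was picked after the sequences had been seen.
Clec4f, chr6:83656117-83656236: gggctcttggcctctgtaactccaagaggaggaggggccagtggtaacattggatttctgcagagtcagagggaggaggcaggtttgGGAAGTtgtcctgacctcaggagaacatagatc
Vsig4, chrX:96293439-96293558: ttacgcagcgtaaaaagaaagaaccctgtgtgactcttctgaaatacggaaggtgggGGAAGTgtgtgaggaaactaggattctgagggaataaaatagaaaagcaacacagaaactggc
Timd4, chr11:46810679-46810798: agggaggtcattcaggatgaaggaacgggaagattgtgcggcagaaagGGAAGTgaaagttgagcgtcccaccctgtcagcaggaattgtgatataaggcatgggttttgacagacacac
Cd5l, chr3:87357761-87357880: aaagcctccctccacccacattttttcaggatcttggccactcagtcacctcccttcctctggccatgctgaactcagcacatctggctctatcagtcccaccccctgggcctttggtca
Marco, chr1:120505025-120505144: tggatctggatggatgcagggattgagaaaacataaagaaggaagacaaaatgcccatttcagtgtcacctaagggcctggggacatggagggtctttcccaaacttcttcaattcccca
The motif stood 33 bases before the start of Clec4f, 63 before that of Vsig4 and 72 before that of Timd4, searched on both strands, and these letters were not in the windows of Cd5l and Marco. Of 32851 promoter windows of the same length, 3807 (11.6%) held it, so a match is only a description. The RefSeq start of Clec4f lies inside the longer gene model whose coordinates are given above.

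The choice asked for a sum of at least 2 UMIs over Cd5l, Vsig4, Marco and Timd4, and the 4 genes filled it unequally. Cd5l was detected in 595 cells (98.7%), Vsig4 in 481 (79.8%), Marco in 365 (60.5%) and Timd4 in 218 (36.2%), and 302 cells (50.1%) held Vsig4, Cd5l and Marco together. Adgre1, which encodes the macrophage antigen F4/80 and was not used to choose the cells, stood at 705 CPM (UMIs of the gene scaled to the total of the summed cells) in the Kupffer cells of HFD1, 696 in HFD2 and 785 in WD3. T and NK cell markers summed to 13.7, 19.9 and 9.67 CPM over 9 genes in the same 3 mice, where the choice itself had removed cells with Cd3e. Markers of other cells were present at low level, and 116 cells (19.2%) had at least 3 UMIs of another type's markers, 87 of them of hepatocyte and 36 of endothelial genes. Summed hepatocyte markers reached 1375 CPM in HFD1, 1588 in HFD2 and 526 in WD3, led by transferrin (Trf), which macrophages also make, while summed sinusoidal endothelial markers reached 1534, 531 and 1061 CPM, led by Cdh5, which Kupffer cells also express. Bile duct (cholangiocyte) markers, a list of 9 genes picked after the values were seen, summed to 118, 60.8 and 2.07 CPM in HFD1, HFD2 and WD3, led by Sox9 in the first 2 mice. They lay mostly in 1 cell of HFD1 (33425 UMIs) and 1 of HFD2 (31498 UMIs), each with exactly 2 Clec4f UMIs, no Timd4 UMI and at least 3 UMIs of these markers. The tests of expression below were repeated without these 2 cells, an alternative added after seeing the data. Doublets were not removed, and 6 of the cells held over 30000 UMIs. No 2 Kupffer cells shared a barcode between libraries, and 13 had a barcode that was also a kept cell of another library.

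Kupffer cells were concentrated in 3 NASH mice, and the other 5 mice held 25 of them between them. In WD3, 290 of 11717 kept cells were Kupffer cells (2.48%, exact binomial 95% interval 2.201 to 2.77). HFD1 gave 178 of 11179 (1.59%, 1.37 to 1.84) and HFD2 gave 110 of 10123 (1.09%, 0.894 to 1.31). These 3 mice held 578 of the 603 cells (95.9%), so each value of expression below rests mainly on them. HFD3 gave 12 of 10654 (0.113%), WD1 gave 3 of 11999 cells (0.0250%) and WD2 gave 5 of 9846 (0.0508%). Control 1 gave 5 of 10788 cells (0.0463%, interval 0.0151 to 0.108), and control 2 gave 0 of 4168, which allows a share of up to 0.0720% (an upper limit of 3 cells) or 0.0885% by the exact binomial interval. WD1 and WD2 lay within the interval of control 1, and the 3 mice rich in Kupffer cells lay far above both controls. Kept cells that met the Kupffer marker limits but held a Top2a, Cd3e or Cd79a UMI were not counted. There were 140 of them in WD3, 30 in HFD1, 32 in HFD2 and 2 in HFD3. WD1 had 3, WD2 had 4, control 1 had 7 and control 2 had 0.

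**Figure D1:**
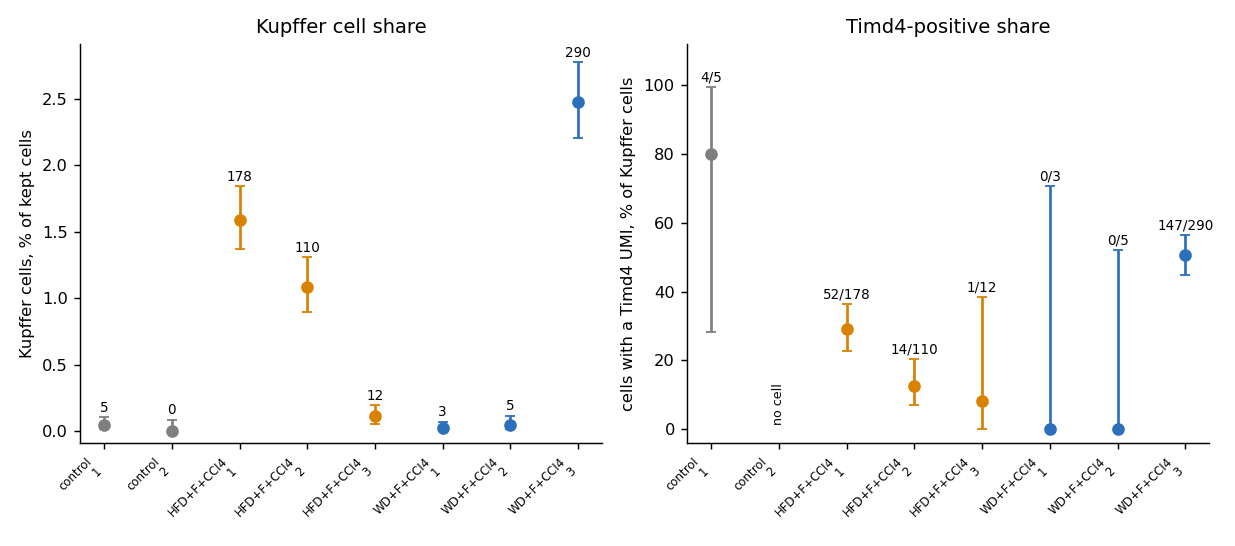
Share of kept cells that were Kupffer cells in each of the 8 mice (percent, vertical axis), and share of Kupffer cells with a Timd4 UMI, with exact binomial 95% intervals as bars, which cover counting error only. WD3, HFD1 and HFD2 stand at 2.48%, 1.59% and 1.09%, while the other 5 mice stay at or below 0.113%.

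The spread between mice was wide. The NASH mice averaged 0.890% ± 1.01 (SD, n = 6) and the controls 0.0232% ± 0.0328 (SD, n = 2), a difference of 0.867 points that missed significance (exact two-sided permutation test, p = 0.143, smallest possible p 0.0714), with 5 of 6 NASH mice above both controls. HFD+F+CCl4 averaged 0.931% ± 0.752 (n = 3) and differed from control by 0.907 points (exact permutation p = 0.2, the smallest that 3 against 2 mice gave), and each of its 3 mice was above both controls. WD+F+CCl4 averaged 0.850% ± 1.41 (n = 3), with a difference from the same controls of 0.827 points (exact permutation p = 0.4, smallest 0.2), which was 0.0147 points without WD3. The 2 models differed by -0.0802 points (exact permutation p = 0.8, smallest 0.1), and this difference turned positive in 4 alternatives and was -0.893 points without WD3. Shares are of dissociated and captured cells, so fewer Kupffer cells in the liver and fewer that survived dissociation cannot be told apart.

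Depth differed between the libraries. Kept cells held a median of 2397 UMIs in control 1 and 993 in control 2, against 3159 in HFD1, 3829 in HFD2 and 4278 in WD3, but also 4041 in WD1 and 3908 in WD2, which had almost no Kupffer cells. Each cell was therefore thinned to 1000 UMIs, with shallower cells left out. With the limits kept at 2 UMIs, a setting chosen after seeing the data, the shares were 1.70% in WD3, 0.912% in HFD2, 0.817% in HFD1, 0.0580% in HFD3, 0.0489% in control 1, 0.0212% in WD2 and 0% in WD1 and control 2. With the limits lowered to 1 UMI of Clec4f and 1 of the other markers, which takes in more cells, they were 3.20% in WD3, 2.02% in HFD1, 1.34% in HFD2, 0.106% in HFD3, 0.0636% in WD2, 0.0586% in control 1, 0.0345% in WD1 and 0% in control 2. WD3, HFD1 and HFD2 stood highest under both limits, while HFD1 and HFD2 changed order. Thinning left out 557 of the 10788 kept cells of control 1 and 2137 of the 4168 of control 2.

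Clec4f UMIs were also found in other cells of the same mice, as free RNA in a droplet can give. Among T cells, which should not make Clec4f, a Clec4f UMI was found in 11.4% in WD3, 7.79% in HFD1 and 6.23% in HFD2, and in 0.115% to 1.73% in the other 5 mice. At least 2 UMIs, as the choice of Kupffer cells required, were found in 2.37%, 0.973% and 0.778% of T cells in WD3, HFD1 and HFD2. Cells with exactly 2 Clec4f UMIs, the members just inside the limit, numbered 95, of which 48 were in WD3, 35 in HFD1 and 10 in HFD2. Just outside it, with 1 Clec4f UMI and at least 2 of the other markers, stood 333 cells in WD3, 270 in HFD1 and 57 in HFD2.

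Cells near the limit held less of the other Kupffer genes and more Gpnmb than cells with many Clec4f UMIs. Cd5l stood at 1144, 861 and 746 CPM in HFD1, HFD2 and WD3 in cells with 1 Clec4f UMI, at 1348, 990 and 1503 CPM with 2, and at 7811, 6914 and 8614 CPM with more than 10. Slc40a1, which encodes the iron exporter ferroportin and was not part of the choice, stood at 862, 606 and 511 CPM in cells with 2 Clec4f UMIs and at 3435, 2541 and 2159 CPM in cells with more than 10. Spp1, which encodes osteopontin, stood at 3407 CPM in HFD1 and 3014 in HFD2 at 2 Clec4f UMIs against 95.8 and 27.3 above 10, whereas WD3 had 117 and 87.1 CPM. The 2 cells with bile duct markers held 671 of the 723 Spp1 UMIs of HFD1 and 202 of the 204 of HFD2 at 2 Clec4f UMIs, and without them the values were 291 and 55.3 CPM. Gpnmb stood at 1258, 901 and 588 CPM with 2 Clec4f UMIs and at 409, 403 and 332 with more than 10. Without the 2 cells, Gpnmb was at 1494 and 1299 CPM and Cd5l at 1589 and 1741 CPM in HFD1 and HFD2 at 2 Clec4f UMIs. All of these are descriptions of cells ordered by a gene of the choice, and the comparisons below were therefore repeated with at least 6 Clec4f UMIs.

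**Figure D2:**
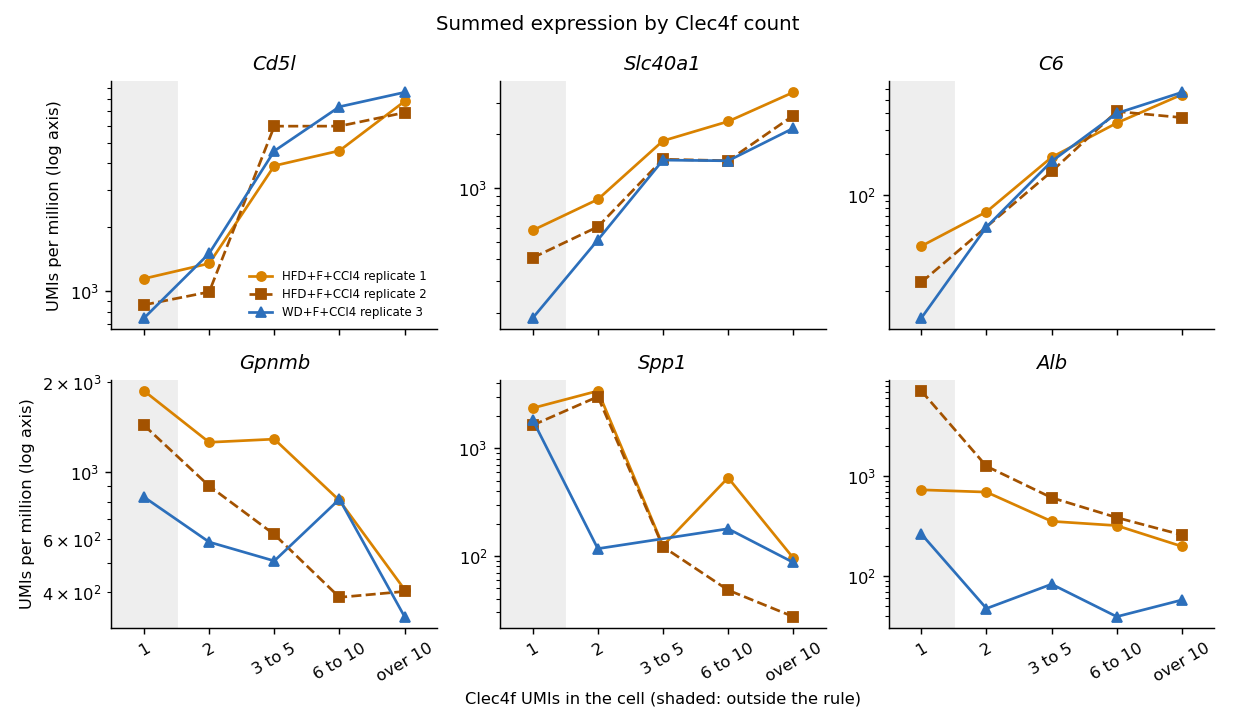
Level (CPM, log axis) of genes in kept cells grouped by their number of Clec4f UMIs, for HFD1, HFD2 and WD3, with cells at 1 UMI lying outside the choice. Cd5l, Slc40a1 and C6 are higher and Gpnmb is lower above 10 UMIs than at 2 UMIs in all 3 mice, and lines pass over the 0 of Spp1 in WD3 at 3 to 5 UMIs and of C6 in HFD2 at 2 UMIs, which a log axis cannot show. Spp1 at 2 UMIs in HFD1 and HFD2 includes the 2 cells with bile duct markers.

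Levels of the 5 genes of the choice differed in size between mice, and these values are given without a test. These genes were not removed from the fits below, where their results are not read because the choice used them. Clec4f stood at 1865 CPM in HFD1, 2743 in HFD2 and 2511 in WD3, and Cd5l at 5438, 6281 and 7551 CPM. Vsig4 stood at 1455, 1685 and 2167 CPM. These 3 genes were of similar level in the 3 mice, and Marco and Timd4 varied more. Marco, the scavenger receptor, stood at 1961 CPM in HFD1, 748 in HFD2 and 4477 in WD3, and was detected in 64.0%, 25.5% and 75.2% of the Kupffer cells. Timd4 stood at 120, 62.0 and 230 CPM.

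The 5 Kupffer cells of control 1 held 7509 UMIs together, so a gene with 3 counts there already stands at 399.5 CPM, and no control mouse had the 20 cells that a test required. Their values are therefore given with exact Poisson 95% intervals, which cover counting error only, for genes picked after their values were seen. Of 306 genes in the lists that were not used in the choice, 16 had an interval wholly above HFD1, HFD2 and WD3 and 12 one wholly below, beside 1.32% above and 0.127% below of 18972 genes with a UMI in these Kupffer cells. Of the 16 genes above, 10 were in the lists of markers of other cells. They were Alb, Apoa2, Fga and Mup3 of hepatocytes, Cdh5, Gpr182 and Ptprb of endothelium, and Cd3d, Klrb1c and Ebf1 of lymphocytes, the last 3 with 1 UMI each. Cdh5 is in the list of Kupffer identity genes as well. Cd163, the receptor that clears hemoglobin, had 14 UMIs in the 5 cells, or 1864 CPM (1019 to 3128), against 38.8, 47.1 and 54.9 CPM in HFD1, HFD2 and WD3. Ccl24, an eosinophil attractant, stood at 666 CPM (216 to 1554) against 24.2, 49.6 and 55.6, but all 5 of its UMIs lay in 1 of the 5 cells, which the interval does not take into account. C6, a terminal complement component, stood at 1199 CPM (548 to 2275) against 366, 320 and 475. Cd163 was detected in 4 of the 5 control cells and C6 in 3.

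Genes on the lower side in the control cells included some of lipid handling and lysosomes. Apoe, the apolipoprotein that carries cholesterol out of macrophages, stood at 8656 CPM (6681 to 11033) in control 1 against 37105, 32644 and 23209 in HFD1, HFD2 and WD3. Lgals3, which encodes galectin-3, stood at 266 CPM (32.3 to 962) against 1241, 1340 and 1641, and the protease gene Ctsd at 1731 CPM (922 to 2961) against 5896, 6211 and 5088. In the NASH mice with few Kupffer cells, HFD3, WD1 and WD2, Apoe stood at 29583, 14058 and 21434 CPM, all above the interval of the control cells, whereas Lgals3 (746 CPM) and Ctsd (1369 CPM) of WD1 lay within it. Vcam1 had 0 UMIs in the control cells, with an upper limit of 491 CPM, and stood at 1056, 1197 and 1439 CPM in HFD1, HFD2 and WD3, at 941 in HFD3, at 622 in WD1 and at 265 in WD2, the last below that limit. Trem2, Gpnmb and Mmp12 had 0 UMIs as well, but their levels in at least 1 of HFD1, HFD2 and WD3 were below that limit, so a difference was not detectable at this depth. Alb stood at 1465 CPM (731 to 2621) and Ptprb at 799 CPM (293 to 1739), and 3 of the 5 cells carried at least 3 UMIs of another type's markers. The 5 control cells were also shallower, with a median of 1377 UMIs against 5655 in HFD1, 5565 in HFD2 and 9145 in WD3. Their median share of mitochondrial UMIs was 7.04%, against 2.47%, 1.75% and 1.90% in these mice. The part of other types' markers and of cell quality in the values above was not tested, and 1 mouse says nothing of the spread between controls.

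Between the models, Kupffer cells of WD3 were compared with those of HFD1 and HFD2, the mice with at least 20 cells. With WD3 alone in its group, the test assumed that it varied like the HFD+F+CCl4 mice and had 1 residual degree of freedom. Few genes passed it: of 9968 tested, 5 (0.0502%) were higher in WD3 and 16 (0.161%) were lower at an adjusted p under 0.05, and 348 passed at an unadjusted p under 0.05. Saa3, which encodes an acute phase protein that macrophages secrete, was higher, with 223 CPM in WD3 against 50.1 in HFD1 and 64.5 in HFD2 (log2 difference 2.03 ± 0.29 SE, adjusted p = 0.0155). Its level was 60.1 CPM in HFD3, 124 in WD1 and 26.5 in WD2, so the remaining mice of the 2 models overlapped. With at least 10 cells per mouse, which adds HFD3, its adjusted p was 0.299 (log2 difference 1.99), and 0 of 9705 genes passed by edgeR (188 at an unadjusted p under 0.05). Its adjusted p was 0.0822 by DESeq2 and with at least 6 Clec4f UMIs. Apart from Saa3, the genes that were higher were the 4 hemoglobin genes, whose sum was 692 CPM in WD3 against 8.08 in HFD1 and 52.1 in HFD2. Each of the 4 stood higher in HFD3 and in WD1 than in WD3, and at 0 in WD2. Hbb-bs was at 404 CPM in WD3, 821 in HFD3 and 3981 in WD1, so the remaining mice of the 2 models overlapped here too.

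Of the 16 genes that were lower in WD3, 4 stayed called without the 2 cells of HFD1 and HFD2 that held bile duct markers. Clu, which encodes the chaperone clusterin, fell from 623 and 653 CPM in HFD1 and HFD2 to 26.9 in WD3 (log2 difference -4.50 ± 0.39, adjusted p = 0.00142). Ambp, a plasma protein gene of hepatocytes, fell from 62.2 and 59.6 to 4.49 CPM (-3.68 ± 0.41, adjusted p = 0.00411). Alb, Apoa1, Ttr and Serpina1c were the 4 of 14 hepatocyte markers that fell, and Sox9, Onecut2 and Bicc1, which are known from bile duct cells, fell with them. The 2 cells held 685 of the 771 Clu UMIs of HFD1 and 508 of the 526 of HFD2, 64 of the 77 and 35 of the 48 Ambp UMIs, and 57 of the 57 and 18 of the 19 Sox9 UMIs. Without them Clu stood at 71.4 and 23.2 CPM in HFD1 and HFD2 against 26.9 in WD3 (log2 difference -0.81 ± 0.40), and neither Clu nor Ambp passed. In this setting 25 of 9613 genes were called, 14 higher and 11 lower, and 9 of them were among the 21: Saa3 (1.98 ± 0.30, adjusted p = 1.99e-04), the 4 hemoglobin genes, Alb, Apoa1, Ttr and Serpina1e. The genes then called also included the stellate cell markers Col1a1, Col1a2 and Dcn, which were lower, and Chil3, Ccl8, Cxcl13, Colec12 and Scd1, which were higher. Marco, a gene of the choice, was counted among the higher genes too. Its call is not read, because its UMIs helped to choose the cells. Summed hepatocyte markers were 1375 and 1588 CPM in HFD1 and HFD2 and 526 in WD3. Without the cells that held another type's markers, the log2 difference of Clu was -0.82 (adjusted p = 0.998), and 9 genes passed the test. With at least 6 Clec4f UMIs, 0 genes passed by edgeR (270 at an unadjusted p under 0.05).

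No list of macrophage genes held a gene that passed between the models with all cells kept. Without the 2 cells with bile duct markers, the monocyte gene Chil3, the inflammatory gene Cxcl13 and the scavenger receptor gene Colec12 were among those that passed, and these were higher. With all cells kept, Kupffer identity genes had 0 of 26 called (median log2 difference 0.28), MHC class II genes 0 of 11 (-0.74), sterol synthesis genes 0 of 11 (-0.81), LXR targets 0 of 15 (0.04) and immediate early genes 0 of 15 (-0.93), beside a median of -0.02 over all genes tested. With 3 mice these tests do not show that the models were alike. Expression in NASH against control was not tested, because no control mouse had 20 Kupffer cells.

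Timd4, which belongs to the sum used in the choice, was found in a larger share of the Kupffer cells of WD3 than of HFD1 and HFD2, and these shares are a description. In WD3, 147 of 290 Kupffer cells had a Timd4 UMI (50.7%, exact 95% interval 44.8 to 56.6), in HFD1 52 of 178 (29.2%, 22.7 to 36.5) and in HFD2 14 of 110 (12.7%, 7.14 to 20.4). Among T cells, which should lack the gene, 2.04%, 0.730% and 0.389% had one in WD3, HFD1 and HFD2, with a median of 2343, 2614 and 3082 UMIs per cell against 9145, 5655 and 5565 in Kupffer cells. At full depth the intervals of these 3 mice do not overlap, but they cover counting error only, and mice are the replicates. Over mice, WD3 stood 29.7 points above the mean of HFD1 and HFD2 (21.0% ± 11.7, SD, n = 2), and 1 mouse against 2 allows no useful test. Among the mice with few cells, Timd4 was found in 4 of 5 Kupffer cells of control 1, in 1 of 12 of HFD3, in 0 of 3 of WD1 and in 0 of 5 of WD2.

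Depth moved with the Timd4 classes. Cells with a Timd4 UMI were deeper, with a median of 11309 against 6378 UMIs in WD3, 7457 against 4829 in HFD1 and 8027 against 5221 in HFD2. Each Kupffer cell was therefore thinned to 2000 UMIs. This left 259 of the 290 cells of WD3, 154 of the 178 of HFD1 and 82 of the 110 of HFD2. The shares were then 25.5% in WD3 (exact binomial interval 20.3 to 31.2), 18.2% in HFD1 (12.4 to 25.2) and 6.10% in HFD2 (2.01 to 13.7). They kept their order, and each was lower than before. The interval of HFD1 now overlapped those of WD3 and HFD2, while those of WD3 and HFD2 stayed apart. With at least 6 Clec4f UMIs the shares were 62.9%, 35.6% and 14.3% in WD3, HFD1 and HFD2.

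Timd4-positive and Timd4-negative Kupffer cells of the same mouse were then compared in HFD1 and WD3, the mice with at least 20 cells of each, with the mouse as a block. Of 8565 genes, 90 (1.05%) were higher and 127 (1.48%) were lower in Timd4-positive cells, beside a median log2 difference of -0.01 over all genes. Timd4, which split the classes, and the other genes of the choice were not removed from this fit. The counts of called genes in each setting can therefore include them. Of 26 Kupffer identity genes 14 were higher and 1 lower, and of 10 class II genes 6 were lower and 1 higher. The design is small, with 1 residual degree of freedom, and 217 genes called became 1 without the block and 22 by DESeq2, all 22 of which were among the 217. Without the 2 cells with bile duct markers, which were Timd4-negative, 119 genes were called, all of them among the 217. Of the 10 genes named by size, 9 kept their call without those cells, all but Clu. Of the same 10, 1 kept its call in thinned cells, 3 lost it and the rest had too few counts there, 2 kept and 2 lost it by DESeq2, which gave the rest no adjusted p, and none kept it without the block.

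Kupffer identity genes outside the choice rose in Timd4-positive cells in 14 of 26 tested, and 1 fell (median log2 difference 0.55). Cd163 was at 53.8 against 30.3 CPM in HFD1 and 79.5 against 16.05 in WD3, with 210 against 16.2 in the 14 Timd4-positive cells of HFD2, which were not part of the test (log2 difference 1.68 ± 0.29, adjusted p = 1.98e-04). Ccl24 was at 38.1 against 16.4 CPM in HFD1 and 79.5 against 17.8 in WD3 (1.84 ± 0.30, adjusted p = 7.24e-05). Pcolce2, an enhancer of procollagen processing, was at 60.6 against 21.4 and 147 against 59.7 CPM (1.33 ± 0.21, adjusted p = 4.89e-05). These 3 genes were higher in the Timd4-positive cells of HFD2 as well. Fcna, a soluble pattern recognition lectin, rose by 1.10 ± 0.14 on the log2 scale, C6 by 0.95 ± 0.14, Vcam1, an adhesion molecule, by 0.66 ± 0.14 and ferroportin Slc40a1 by 0.65 ± 0.14. The one identity gene that fell was Lyve1, which is also an endothelial marker. Tmc3 (1.59 ± 0.32) and Ank2 (1.40 ± 0.29) were the other large rises. Without the 2 cells with bile duct markers 9 of 26 identity genes rose, Spic, Ptgs1, Folr2, Dmpk and Il18bp losing their calls, and Cd163, Pcolce2, Fcna, C6, Vcam1 and Slc40a1 keeping theirs. With at least 6 Clec4f UMIs, 7 of 25 identity genes rose, and in cells thinned to 2000 UMIs 5 of 23 did.

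MHC class II genes were lower in Timd4-positive cells, with 6 of 10 tested down and 1, the costimulator Cd86, up (median log2 difference -0.86). H2-Eb1, a class II beta chain, was at 769 against 1663 CPM in HFD1, 267 against 909 in WD3 and 248 against 1388 in HFD2 (-1.45 ± 0.15, adjusted p = 2.36e-09). H2-Aa, the alpha chain, was at 1115 against 2166, 451 against 1278 and 380 against 1998 CPM (-1.24 ± 0.14, adjusted p = 6.25e-08). Cd74, the invariant chain that guides class II to the endosome, was at 2966 against 5579, 1529 against 4062 and 1304 against 5250 CPM (-1.17 ± 0.14, adjusted p = 2.77e-07). The direction was the same in each of the 3 mice. Markers of cells that also carry class II moved with these classes, with 2 of 3 dendritic cell markers (Fscn1 and Itgax) and 1 of 3 B cell markers (Cd79b) lower in Timd4-positive cells, and their part in the class II values was not tested. Fscn1 and Itgax lost their calls without the 2 cells with bile duct markers. Of the class II list, 4 genes were called lower by DESeq2, 4 with at least 6 Clec4f UMIs, 4 after thinning, 7 without cells that held another type's markers and 5 without the 2 cells with bile duct markers, where Cd86 was not called.

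Smaller shares of the iron and lipid lists passed, with LXR targets at 1 of 15 and sterol synthesis at 0 of 7. Of 16 genes of iron and heme handling 4 rose, namely Cd163, the transcription factor Spic, Slc40a1 and the heme oxygenase Hmox1, and none fell, and 2 did without the 2 cells with bile duct markers, Cd163 and Slc40a1. Of 18 lipid-associated macrophage genes 7 fell and 1, the protease Lgmn, rose, whereas 5 fell and none rose without the 2 cells. Spp1 fell from 1129 CPM in Timd4-negative to 83.0 in Timd4-positive cells of HFD1 and from 154 to 54.1 in WD3 (-2.56 ± 0.23, adjusted p = 4.73e-11), but its adjusted p was 0.367 after thinning and 0.235 by DESeq2. Of its 895 UMIs in the Timd4-negative cells of HFD1, 671 lay in the 1 cell with bile duct markers. Without that cell they were at 295 CPM, and the log2 difference was -1.65 (adjusted p = 2.77e-05), beside -1.97 (adjusted p = 1.20e-22) with at least 6 Clec4f UMIs. Fabp5, a fatty acid binding protein, fell by 1.00 on the log2 scale (SE 0.14), and Trem2 stood at 433 against 442 CPM in HFD1 and 360 against 481 in WD3. Among secreted proteins, the chemokine gene Ccl8 was lower (-2.11 ± 0.19), with 24.7 against 68.2 CPM in HFD1 and 58.1 against 267 in WD3, as were the surface protein gene Ly6a (-1.78 ± 0.20), the protease inhibitor gene Timp3 (-1.71 ± 0.35) and Clu (-2.61 ± 0.30). In HFD2, Ccl8 was at 85.4 against 48.7 CPM, the opposite direction. Interferon-stimulated genes had 0 of 16 called in either direction.

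Markers of other cells moved with the Timd4 classes. Of 13 sinusoidal endothelial markers 9 fell in Timd4-positive cells and 1, Cdh5, rose, and Hbb-bs was at 20.9 against 1010 CPM in WD3. In HFD1 Hbb-bs showed no such difference, at 4.49 CPM in Timd4-positive cells and 4.04 in all Kupffer cells. Of 14 monocyte genes Cx3cr1, Ccr2 and S100a6 fell, and of 4 neutrophil markers S100a8 and S100a9 did, with none higher in either list. Without the cells that held another type's markers 1 of 7 endothelial markers fell, and with at least 6 Clec4f UMIs 1 of 12 did. Clu lost its call in both of these settings (adjusted p = 0.549 and 0.781) and without the 2 cells with bile duct markers (0.589), and H2-Eb1, H2-Aa, H2-Ab1 and Cd74 kept theirs. The part of these markers in the other values was not tested. A test of whether the Timd4 difference itself differed between the models needed the 14 Timd4-positive cells of HFD2 as well, and 1 of 7662 genes (0.0131%) passed it, Clu, at 60.6 against 939 CPM in HFD1, 31.0 against 771 in HFD2 and 23.7 against 32.1 in WD3. Without the 2 cells with bile duct markers 0 of 7584 genes passed by edgeR (164 at an unadjusted p under 0.05), and Clu was at 77.7 CPM in the Timd4-negative cells of HFD1 and 21.7 in those of HFD2.

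**Figure D3:**
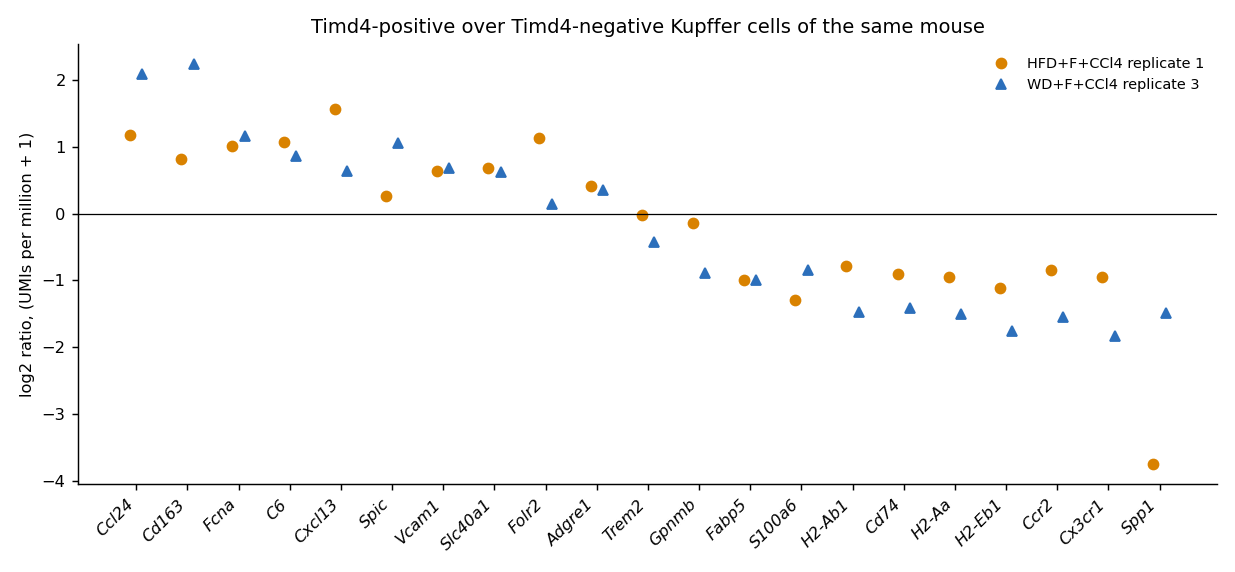
Log2 ratio of Timd4-positive to Timd4-negative Kupffer cells, from CPM with 1 added (vertical axis), for list genes in HFD1 and WD3, with 0 marking equal levels. Cd163, Ccl24 and Slc40a1 lie above 0 and the class II genes H2-Eb1, H2-Aa and Cd74 below it in both mice.

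Kupffer cells were next set against Trem2 Gpnmb macrophages, of which 1329 were found in HFD1, 1212 in HFD2 and 847 in WD3. These were kept cells with at least 2 UMIs of each of these genes and none of Clec4f, Top2a, Cd3e or Cd79a. Some Kupffer cells also met the Trem2 and Gpnmb limits, and only Clec4f kept those cells out of the macrophage class. Both classes were cut on UMIs of the same cells that were then compared, with the mouse as a block. Genes used to choose either class were left out of the lists and named genes. They were not removed from the fit, so the totals can include them. Of 12026 genes, 1237 (10.3%) were higher and 1383 (11.5%) lower in Kupffer cells. Most identity and complement genes of the lists were higher in Kupffer cells, and most monocyte and lipid-associated genes were lower. Without the block 550 were higher and 378 lower. With no scaling beyond library size 1779 were higher and 867 lower, since the median of all genes then stood at 0.11 instead of -0.02, and the changes called below were larger than that shift.

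Of 27 Kupffer identity genes outside the choice 23 were higher and 0 lower (median log2 difference 2.26). Slc40a1 was at 2526, 2221 and 1883 CPM in the Kupffer cells of HFD1, HFD2 and WD3 against 294, 124 and 141 in Trem2 Gpnmb macrophages (3.52 ± 0.16, adjusted p = 6.59e-09). C6 was at 366, 320 and 475 CPM against 11.9, 1.88 and 6.47 (5.77 ± 0.28, adjusted p = 1.14e-08). Kcna2, a potassium channel, was at 144, 235 and 314 CPM against 3.27, 0.793 and 4.70 (6.16 ± 0.26, adjusted p = 5.70e-09). No mouse overlapped between the classes in these genes, and the lowest Kupffer value of each was many times the highest macrophage value. Fcna (5.53 ± 0.26), Ccdc148 (5.08 ± 0.22) and Cxcl13 (5.01 ± 0.31), a B cell attractant, completed the largest rises. Vcam1 was at 1056, 1197 and 1439 against 136, 59.1 and 164 CPM, and Cd163 was 17.8-fold higher although low in both classes. LXR-alpha itself, Nr1h3, was at 452, 484 and 471 against 177, 173 and 181 CPM. Id3 stood at 516, 403 and 336 against 425, 384 and 347 CPM (adjusted p = 0.831), and Id1 did not pass the test either (adjusted p = 0.957).

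**Figure D4:**
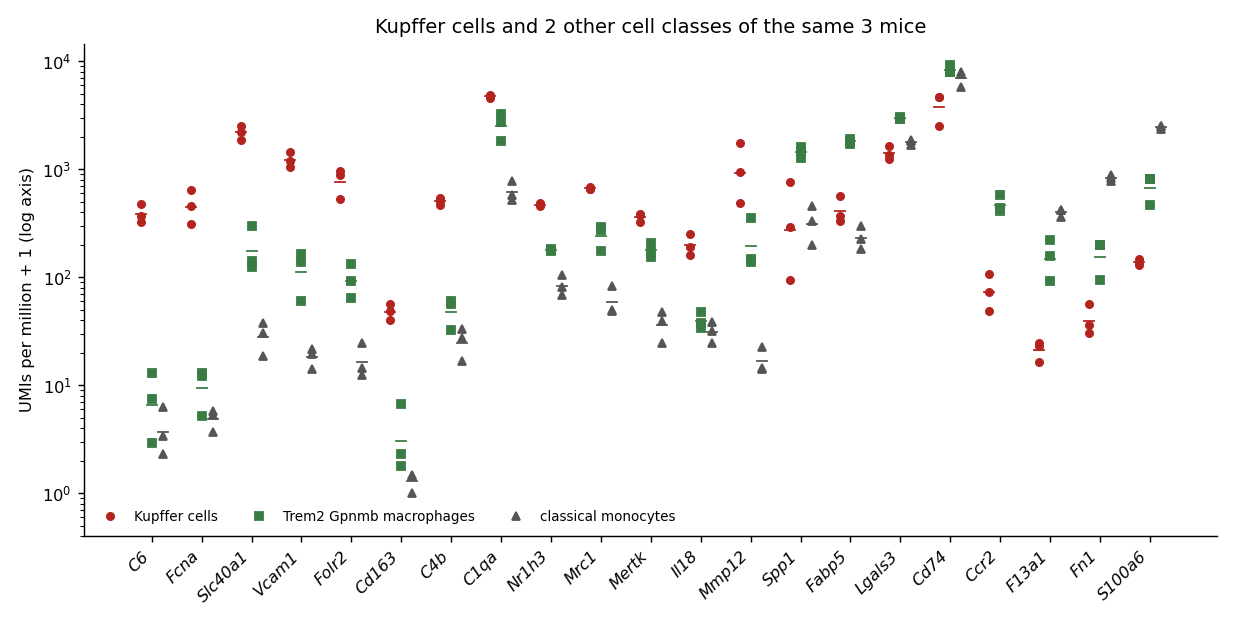
Levels (CPM with 1 added, log axis) of named genes in Kupffer cells, Trem2 Gpnmb macrophages and classical monocytes, with each point 1 of HFD1, HFD2 and WD3 and each bar their geometric mean. Slc40a1, C6 and Vcam1 are highest in Kupffer cells in each mouse and Fabp5 is highest in Trem2 Gpnmb macrophages, while Ccr2, which helped to choose the monocytes, is not drawn for them.

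Complement genes were higher in Kupffer cells in 10 of 14 and lower in 2, both of the latter being anaphylatoxin receptors, C3ar1 and C5ar1. C4b was at 464, 542 and 502 CPM against 58.7, 31.4 and 55.1 (3.26 ± 0.17, adjusted p = 1.78e-08), and properdin (Cfp) at 906, 1201 and 1335 against 324, 366 and 549. C1qa, of the first component, was 1.69-fold higher. Iron and heme genes were higher in 8 of 16, among them Hmox1 and the ferroportin regulator Spic, whereas the ferritin chains Fth1 and Ftl1 and the repressor Bach1 were lower. Fth1 stood at 5554, 5711 and 6803 CPM against 8837, 8128 and 7348 (-0.57 ± 0.10), which is an opposite direction to that of the exporter. Scavenger receptors were split, with 9 of 20 higher, led by Stab2, Clec4n and the mannose receptor Mrc1 (659, 651 and 682 against 289, 173 and 270 CPM), and 4 lower, of which Stab1 was at 405, 249 and 219 against 780, 638 and 639 CPM.

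Lipid genes did not move as 1 group. Of 15 LXR targets and efflux genes 7 were higher and 2 lower (median 0.40), among them the exporter Abca1 at 426, 515 and 743 against 323, 283 and 350 CPM (0.65 ± 0.12). Apoe was lower, at 37105, 32644 and 23209 against 51831, 38912 and 33222 CPM (-0.56 ± 0.07). Abcg1, a cholesterol exporter, and Soat1, which esterifies cholesterol, did not pass, and sterol synthesis genes had 0 of 14 called in either direction. Of 18 lipid-associated genes left after Trem2 and Gpnmb, which chose the macrophages, 12 were lower in Kupffer cells, 2 were higher and 4 did not pass. Fabp5 was at 562, 370 and 332 CPM against 1912, 1783 and 1726 (-2.28 ± 0.12, adjusted p = 1.95e-08), Spp1 at 753, 288 and 92.9 against 1598, 1274 and 1487 (-2.50 ± 0.37, and -3.80 without cells with bile duct markers), and the lipid droplet coat gene Plin2 at 460, 712 and 739 against 820, 1291 and 1320 (-0.98 ± 0.09). Mmp12, a macrophage elastase, went the other way, at 487, 940 and 1760 against 138, 146 and 356 CPM (2.13 ± 0.13, adjusted p = 8.20e-08). Ctsl, a lysosomal protease, stood at 746, 582 and 855 against 768, 477 and 758 CPM (adjusted p = 0.991) and Lpl, lipoprotein lipase, at 1211, 1514 and 2262 against 1139, 1796 and 1923 CPM (adjusted p = 0.487).

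**Figure D5:**
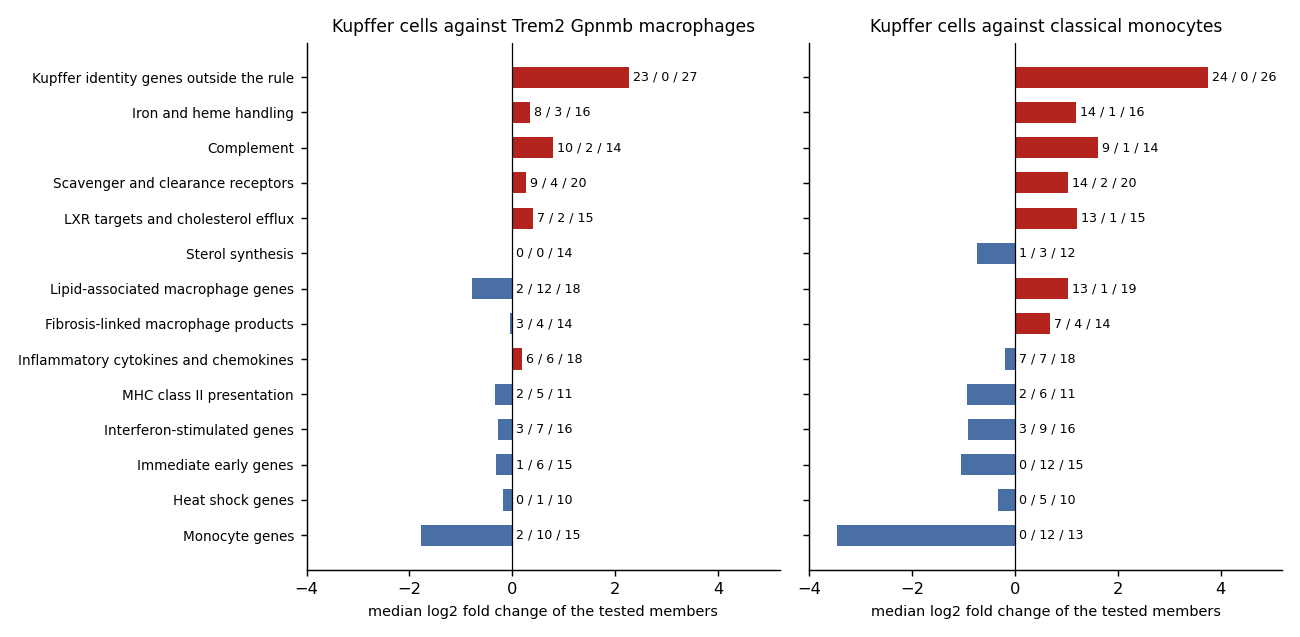
Median log2 difference of the tested members of each list (horizontal axis) between Kupffer cells and Trem2 Gpnmb macrophages (left) or classical monocytes (right), with the numbers higher, lower and tested printed beside each bar. Identity genes are higher in 23 of 27 and 24 of 26, and lipid-associated genes are lower in 12 of 18 against the macrophages but higher in 13 of 19 against monocytes.

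Monocyte genes were mostly lower in Kupffer cells than in Trem2 Gpnmb macrophages, and class II genes were split. Of 15 monocyte genes 10 were lower and 2 higher (median -1.77). The chemokine receptor Ccr2 was at 106, 47.1 and 72.6 CPM against 405, 578 and 437, and Cx3cr1, the fractalkine receptor, at 111.5, 98.0 and 100.2 against 453, 629 and 555 (-2.52 ± 0.13, adjusted p = 1.78e-08). Class II genes were lower in 5 of 11, with H2-Aa at 1787, 1739 and 771 against 3524, 3239 and 2578 CPM (-1.35 ± 0.13), and the costimulators Cd86 and Cd80 were higher. The largest falls were in Gpr183, an oxysterol-sensing receptor (-3.56 ± 0.37), Il7r (-3.56 ± 0.23), Syngr1 (-3.43 ± 0.21), Cd93 (-3.23 ± 0.16) and the coagulation factor gene F7 (-3.10 ± 0.20). Cd93 was at 74.3, 38.5 and 47.0 against 465, 501 and 417 CPM. Interferon-stimulated genes were lower in 7 of 16 and higher in 3, and inflammatory genes were split, 6 of 18 in each direction, with Il1a, Il1b, Il10, Il18, Ccl24 and Cxcl13 higher and Tnf, Ccl3, Ccl4, Ccl5 and Cxcl2 among those lower. Sinusoidal endothelial markers were higher in 11 of 13, and in 3 of 12 without cells that held another type's markers, whereas hepatocyte markers were higher in 1 of 14.

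Kupffer cells were then set against classical monocytes, a class of blood-derived cells. These were kept cells with at least 2 UMIs of Ly6c2, at least 1 of Ccr2 and none of the Kupffer genes, Top2a, Cd3e or Cd79a. They numbered 75 in HFD1, 361 in HFD2 and 351 in WD3. Of 9807 genes, 1674 (17.1%) were higher and 1757 (17.9%) lower in Kupffer cells. These totals, too, can include genes used to choose either class. Identity genes were higher in 24 of 26 (median log2 difference 3.75), with Slc40a1 at 2526, 2221 and 1883 against 37.0, 29.6 and 17.6 CPM (6.32 ± 0.18, adjusted p = 2.00e-15). Cd207, which encodes langerin, was at 548, 423 and 193 CPM against 5.28, 0.870 and 0.953 (7.86 ± 0.26). Pcolce2 had 419 UMIs in Kupffer cells and none in the monocytes of these mice, at least 135-fold higher, taking 3 counts over the group as the floor. Slc16a9, of the monocarboxylate transporter family, had 413 UMIs against 1 (ratio 399, counting interval 71.3 to 15812) and the growth factor gene Pdgfc 402 against 2 (ratio 194, 53.5 to 1610). C6 was among the 5 largest rises as well, with a log2 difference of 7.42 ± 0.24.

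Lipid, iron and clearance genes were mostly higher in Kupffer cells than in monocytes. LXR targets and efflux genes were higher in 13 of 15 and lower in 1, with Abca1 at 426, 515 and 743 against 79.2, 82.2 and 111.5 CPM (2.58 ± 0.14). Lipid-associated genes were higher in 13 of 19, with Mmp12 68.4-fold, Ctsd 4.45-fold, Lpl 3.75-fold and Trem2 1.85-fold higher, and Lgals3 was the 1 that was lower. Kupffer cells thus stood between monocytes and Trem2 Gpnmb macrophages in Fabp5, at 182, 299 and 226 CPM in monocytes, and above both in Mmp12 and Lgmn. Iron and heme genes were higher in 14 of 16, scavenger receptors in 14 of 20 and complement genes in 9 of 14. C3 itself was lower, at 137, 148 and 136 against 412, 310 and 390 CPM.

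Most monocyte genes were lower in Kupffer cells, and other lists were less uniform. Monocyte genes outside the choice were lower in 12 of 13 (median -3.46), with S100a4 at 85.6, 75.7 and 108 against 1497, 1421 and 1687 CPM and Vcan at 0, 9.93 and 5.18 against 164, 123 and 142 (-4.95 ± 0.34). Cd7 (-5.44 ± 0.30), Cd177 (-5.35 ± 0.35), Ly6d (-5.04 ± 0.26) and Cox6a2 (-4.88 ± 0.32) were the other large falls, Cd7 and Ly6d being better known from lymphoid and plasmacytoid cells. Class II genes were lower in 6 of 11 and higher in 2, and interferon-stimulated genes lower in 9 of 16 and higher in 3. Dendritic cell markers (Siglech, Cd209a and Flt3) were lower in 3 of 5, and T and NK cell markers (Cd4 and Trbc2) in 2 of 3. Of 3 B cell markers 1 was higher and 1 lower. The part of such cells in the class II values and in the large falls above was not tested. Immediate early genes, which also respond to dissociation, were lower in 12 of 15 with the block and in 0 of 15 without it, and Fos alone ranged from 31.0 to 372 CPM between the Kupffer cells of the 3 mice. Heat shock genes were lower in 5 of 10. All 5 neutrophil markers tested were lower, with S100a8 at 34.7, 42.2 and 84.6 against 349, 626 and 715 CPM. The part of neutrophils in the large falls was not tested either.

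The study drew Fmnl1, Myh9, Jun, Spp1, Rac1 and Socs3 from these samples, so their direction here is not independent evidence. With Ctsz, Psap and Lamp1, which it measured in THP1 cells, they belong to the 11 genes that the study followed. None was called between the models. Fmnl1, a formin that shapes actin, was at 50.9, 26.1 and 23.8 CPM in the Kupffer cells of HFD1, HFD2 and WD3, against 71.5, 72.9 and 66.9 in Trem2 Gpnmb macrophages (-1.25 ± 0.19, adjusted p = 2.44e-04) and 164, 163 and 179 in monocytes (-2.50 ± 0.20, adjusted p = 6.60e-09). Kupffer cells were the lowest of the 3 classes for it in each mouse. Myh9, a nonmuscle myosin chain, was at 330, 306 and 329 CPM, against 327, 306 and 315 in the macrophages (adjusted p = 0.426) and 488, 349 and 389 in monocytes (-0.38 ± 0.13, adjusted p = 0.0238). Jun was lower than in both other classes, Spp1 and Psap were lower than in the macrophages, Socs3 was lower than in monocytes, and the lysosomal genes Lamp1 and Ctsz were higher than in monocytes. Rac1 did not pass against either class (adjusted p = 0.227 and 0.285).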

How the data were processed

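Dissociated livers of 8 mice went through the 10x Genomics 3' V3 kit. The authors deposited raw UMI counts in 1 matrix of 55450 genes and 88581 barcodes, made with bcl2fastq 2.20 and Cell Ranger on GRCm38, and the barcode suffix names the mouse. The matrix header gives another Cell Ranger version than the methods, and neither the annotation release nor any removal of free RNA is given in the sources used here. The members and gene lists were chosen with earlier results of these data known.

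Counts were summed per mouse and cell class where a mouse had at least 20 cells. Sums were tested with edgeR 4.0.16 in R 4.3.3 (TMM scaling, filterByExpr at a minimum count of 10, quasi-likelihood test, limma 3.58.1) and Benjamini-Hochberg adjustment over all genes, called at 0.05, with DESeq2 1.42.0 as an alternative. For shares, an exact permutation test over mice was used, made two-sided by doubling the smaller tail. Exact binomial and Poisson intervals were computed with SciPy 1.17.1. Classes of the same mice were compared with the mouse as a block, because both came from 1 animal. Genes of the choice stayed in the fits and can be among the counts of calls, but were left out of the lists and named genes. Genes named by rule were the 5 largest rises and falls among calls over a log2 CPM of 5, outside the lists of other cell types, and other list members were named after their values were seen. Both count tests were checked on simulated counts. Scripts used Python 3.11.15, numpy 2.4.6, pandas 2.3.3 and matplotlib 3.10.9.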

Additional observations from a re-analysis of the deposited data

Results flagged for a closer look

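Clu differed between the models in its Timd4 difference, with a log2 difference of 3.62 ± 0.47 (WD+F+CCl4 minus HFD+F+CCl4, adjusted p = 0.0185 by edgeR with 1 residual degree of freedom). It was lower in Timd4-positive cells of HFD1 and HFD2 and near equal in WD3. Of the Clu UMIs of the Timd4-negative cells, 685 of 744 in HFD1 and 508 of 522 in HFD2 lay in 1 cell of each mouse, which also held bile duct markers. Without these 2 cells the log2 difference between the models was -0.25 ± 0.52 and no gene passed, and the Timd4 comparison did not call Clu either (log2 difference -0.41).

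Barcodes outside the quality filter also carried the Kupffer genes of the choice. There were 27 such barcodes in WD3, 8 in HFD1 and 6 in HFD2, against 2 in each control, and the 3 mice are those with most Kupffer cells.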

How the results depend on the processing

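The share of Kupffer cells in NASH mice above control kept its direction in every alternative run, and its difference lay between 0.550 and 1.04 points when each mouse was left out in turn. For WD+F+CCl4 against control that range was 0.0147 to 1.24 points, and for HFD+F+CCl4 against control 0.576 to 1.32. Between the models it was -0.893 to 0.332 points, with a positive sign without HFD1 (0.251), WD1 (0.332) or WD2 (0.320) and 0.00919 points without cells that held another type's markers. The cause was not tested.

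In place of the 21 genes called between the models, 7 were called by DESeq2, 111 with genes of at least 1 count, 53 under 10% mitochondrial UMIs, 9 without cells that held another type's markers and 5 with at least 3 Clec4f UMIs. The count was 0 with at least 10 cells per mouse (188 at an unadjusted p under 0.05) and 0 with at least 6 Clec4f UMIs, a setting chosen after seeing the data. Taking all 6 NASH mice with at least 3 cells gave 15, also chosen after seeing the data. Without the 2 cells with bile duct markers, also chosen after seeing the data, 25 were called, of which 9 were among the 21, and the test of the Timd4 difference between models called 0 (164 at an unadjusted p under 0.05) by edgeR. Marco, a gene of the choice, was among the genes called between the models without these 2 cells. The 217 calls by Timd4 became 119 without the same 2 cells, 22 by DESeq2, 111 without cells that held another type's markers, 88 with at least 6 Clec4f UMIs and 43 in cells thinned to 2000 UMIs, where fewer genes were tested. The 2620 calls against Trem2 Gpnmb macrophages became 1588 by DESeq2 and 1431 after thinning, and 1725 to 2538 with 1 mouse left out, the fewest without WD3. The 3431 calls against monocytes became 1872 by DESeq2 and 1914 after thinning, and 2435 to 3794 with 1 mouse left out. The test of the Timd4 difference between models gave 8 calls in place of 1 with no scaling beyond library size.

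Without the mouse as a replicate block, calls fell to 1 by Timd4, 928 against Trem2 Gpnmb macrophages and 2563 against monocytes. Replicate numbers did not pair the mice of the 2 models, with correlations of 0.0852, -0.00647 and -0.0193 between same-numbered mice over 12066 genes, and the fit of all 6 mice with that number as a replicate block called 2 genes. Because too few sums were left, the replicate block between the models in the 3 mice, leaving out a mouse there or in the Timd4 comparison, and the Timd4 difference between models in thinned cells could not be fitted. In the 5 mice with at most 12 Kupffer cells, only very large differences could be seen at this depth.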

Other observations

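The 12 Kupffer cells of HFD3 held 149851 UMIs and did not enter the tests between the models. One of the cells held 50914 of these UMIs. Mmp12 was at 11351 CPM in the 12 cells and at 4649 without that cell, against 487, 940 and 1760 in HFD1, HFD2 and WD3. Lgals3 stood at 5018 CPM and at 3012 without it, and Gpnmb at 2169 and 1051 CPM. Slc40a1 stood at 888 and 1263 CPM, below the 3 mice. The 3 Kupffer cells of WD1 held 8038 UMIs, with the neutrophil gene S100a8 at 8460 CPM and Hbb-bs at 3981.

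Marco in single cells was uneven within a mouse. In HFD2 its largest count in 1 cell was 326 UMIs and its upper quartile 0.75, and in HFD1 they were 405 and 9 UMIs.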
